A study of Mus musculus with 40 samples.

Results

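NIPBL, the protein that loads cohesin onto chromatin, had peaks at 7836 H3K27ac sites of mouse small pre-B cells where no peak of the cohesin subunits RAD21 or SMC3 was called. A site is a peak of NIPBL wild type (WT) library 1 that overlapped by at least 1 bp a peak in NIPBL WT library 2 and in both H3K27ac WT libraries, and no peak in any RAD21 or SMC3 WT library. Of 25979 peaks in NIPBL WT 1, 20548 were also in NIPBL WT 2. H3K27ac WT 1 left 17614 of them and H3K27ac WT 2 left 17585. A cohesin peak was present at 9749 of these and absent at 7836. The sites were thus chosen by the NIPBL, H3K27ac, RAD21 and SMC3 peaks of WT cells, whose values are given below as a description, with no test.

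The study mapped NIPBL, RAD21, SMC3, the cohesin release factor WAPL, CTCF and the histone marks H3K27ac and H3K4me1 by ChIP-seq in flow-sorted small pre-B cells, the late B cell precursors of the bone marrow, taken from mice. The 3 groups were WT cells, cells of mice without Brwd1 (knockout, KO) and WT cells given 126 nM oligomycin A for 2 h, which the labels call ATPneg. Oligomycin A inhibits the mitochondrial ATP synthase, and BRWD1 is a bromodomain and WD repeat protein that binds acetylated chromatin. Each ChIP used 2000000 cells, and each group had 2 libraries per target, biological replicates per the labels. The labels name no untreated control culture for the 2 h, so the agent and the time in culture cannot be told apart. They give no strain, no age and no account of which part of Brwd1 is deleted. The H3K27ac and H3K4me1 KO libraries carry the genotype label WT, while their titles and descriptions say knockout, and the titles were followed. Read counts were used for WT and KO; for ATPneg, which was mapped for NIPBL, RAD21, SMC3 and WAPL, peak lists were used and the depth is unknown.

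Cohesin is a ring-shaped complex that holds DNA and extrudes chromatin loops. NIPBL, with its partner MAU2, loads the ring and stimulates its ATPase, WAPL opens the ring and lets it go, and CTCF halts it at loop anchors. H3K27ac marks active promoters and enhancers and H3K4me1 marks enhancers. Small pre-B cells have left the cell cycle and recombine their immunoglobulin light chain genes.

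Several libraries stood apart. Total reads over NIPBL regions were 17681215 and 16916106 in WT, 3803369 and 3784506 in KO, and 5266522 and 5792587 in the WT and KO input columns. RAD21 and SMC3 KO libraries were also shallower than their WT libraries (7194434 to 7415143 against 21848632 to 24962590 for RAD21), so for these targets depth and genotype cannot be told apart. The CTCF WT libraries held 3880112 and 17055094 reads, and RAD21 KO 2 had 38712 peaks where RAD21 KO 1 had 16283. The peak names inside the NIPBL WT 1 list are those of a NIPBL KO library and the reverse holds for NIPBL KO 2, while the list sizes (25979 and 55995 for WT, 2333 and 2048 for KO) go with the labels. Names inside the H3K27ac KO lists are those of H3K4me1 samples, and names inside the H3K4me1 WT lists are those of H3K27ac knockout samples, so the overlaps with these lists rest on the labels. Of 14 small pre-B marker genes, 8 had an H3K27ac promoter peak in both WT libraries, as did 6 of 9 mature B, 8 of 12 T cell, 5 of 11 myeloid and 3 of 11 erythroid or megakaryocyte markers, beside 26.7% of all symbols.

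The sites were short. Their peaks had a median length of 124 bp (range 109 to 1007), and the authors' peak score in NIPBL WT 1 had a median of 9.20 (5.01 to 49.2), beside 14.1 for the 9749 NIPBL and H3K27ac peaks with a cohesin peak. The median distance to the nearest WT cohesin peak was 19492 bp, but 217 sites (2.77%) lay within 1 kb and 5 within 100 bp of one. Just outside the rule, 4810 of the 9749 peaks with cohesin (49.3%) overlapped a peak in only 1 of the 4 cohesin WT lists, 4089 of them in SMC3 WT 2 alone, and 814 had a highest cohesin score under 6. SMC3 WT 2 alone thus held out 41.9% of the peaks with cohesin, more than any other cohesin list did alone.

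At 31 promoter-class sites the peak reached into the 250 bases before an annotated start for which RefSeq holds a promoter. The 4 sequences below give those 250 bases for a lymphocyte signalling adaptor (Lcp2), a lysophospholipid receptor of lymphocytes (Gpr174), a subunit of the SMC5/6 complex that is related to cohesin (Smc5) and the densest-input site of that kind (Fam71f1). They were chosen after their values were seen. Capitals mark exact matches to an E-box (CAGCTG), a CTCF core (AGGGGGC) or a RUNX motif (TGTGGTT) on either strand; a match is not a binding site.

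Lcp2: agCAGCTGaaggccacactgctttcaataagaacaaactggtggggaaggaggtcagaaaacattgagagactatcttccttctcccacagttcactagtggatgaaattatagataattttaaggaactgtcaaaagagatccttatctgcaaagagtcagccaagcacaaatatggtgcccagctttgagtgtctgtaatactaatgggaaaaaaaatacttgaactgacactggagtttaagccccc
Gpr174: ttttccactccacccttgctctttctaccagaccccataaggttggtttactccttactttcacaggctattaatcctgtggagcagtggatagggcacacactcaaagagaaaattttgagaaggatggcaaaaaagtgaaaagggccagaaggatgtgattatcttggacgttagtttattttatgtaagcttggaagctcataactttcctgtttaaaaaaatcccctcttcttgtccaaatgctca
Smc5: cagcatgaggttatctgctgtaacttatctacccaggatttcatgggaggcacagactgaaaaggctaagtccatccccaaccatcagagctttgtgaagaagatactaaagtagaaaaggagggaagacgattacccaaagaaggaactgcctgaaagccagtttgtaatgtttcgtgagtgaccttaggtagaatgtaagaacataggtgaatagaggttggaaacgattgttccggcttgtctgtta
Fam71f1: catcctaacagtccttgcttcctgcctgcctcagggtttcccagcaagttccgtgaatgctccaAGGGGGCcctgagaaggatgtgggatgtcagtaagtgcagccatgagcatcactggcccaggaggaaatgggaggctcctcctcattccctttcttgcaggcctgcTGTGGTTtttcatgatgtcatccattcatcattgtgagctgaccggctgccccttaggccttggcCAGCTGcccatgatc

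These sequences are from RefSeq GRCm38.p6, while the peak coordinates are mm9: 11:33946996-33947120 for Lcp2 (-63 bp from the gene's start, negative distances being upstream), X:104451236-104451405 for Gpr174 (14 bp), 19:23348544-23348686 for Smc5 (-156 bp) and 6:29268707-29268915 for Fam71f1 (-219 bp). Lcp2 had 90 and 75 NIPBL reads in WT, 20 and 25 in KO, and 17 and 24 in WT and KO input. Smc5 had 169 and 174, 50 and 40, and 59 and 75. Fam71f1 had 997 and 1175, 186 and 165, and 301 and 292. The order of these 3 sites in NIPBL reads was that of their input reads in every library, though not in proportion. Gpr174 had 125 and 124 NIPBL reads in WT, 24 and 20 in KO, and 38 and 25 in WT and KO input. In KO 2 this was fewer NIPBL reads than at Lcp2. Of the 10 motifs searched, E-box, CTCF core and RUNX letters occur in 16.3%, 10.6% and 5.27% of all 32851 RefSeq windows of 300 bases. The other 7 were ETS (CCGGAAG), CRE (TGACGT), NRF1 (GCGCATG), YY1 (GATGGCG), SP/KLF (GGGCGGG), NFY (CCAAT) and PU.1 (GAGGAAG). Only 68.9% of the genes with a promoter-class site (186 of 270) matched a RefSeq promoter, so a comparison of motif shares is void and none is given.

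Input reads were dense at these sites. NIPBL counts were read from the merged NIPBL regions, and 7829 of 61724 regions held a site. The WT input had a median of 318 reads per kb there (quartiles 199 and 527) and the KO input 323 (200 and 535; 1 input column per genotype, so no spread between inputs). All NIPBL regions had a median of 193 WT input reads per kb, regions of 1 kb or more had 11.5, and regions with H3K27ac and a cohesin peak had 425. More than 100 input reads per kb were found at 95.6% of the regions with a site, 66.4% of all NIPBL regions and 97.5% of those with a cohesin peak. Dense input was thus shared by NIPBL and H3K27ac regions with and without cohesin. The KO to WT ratio of input reads had a median of 1.

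**Figure D1:**
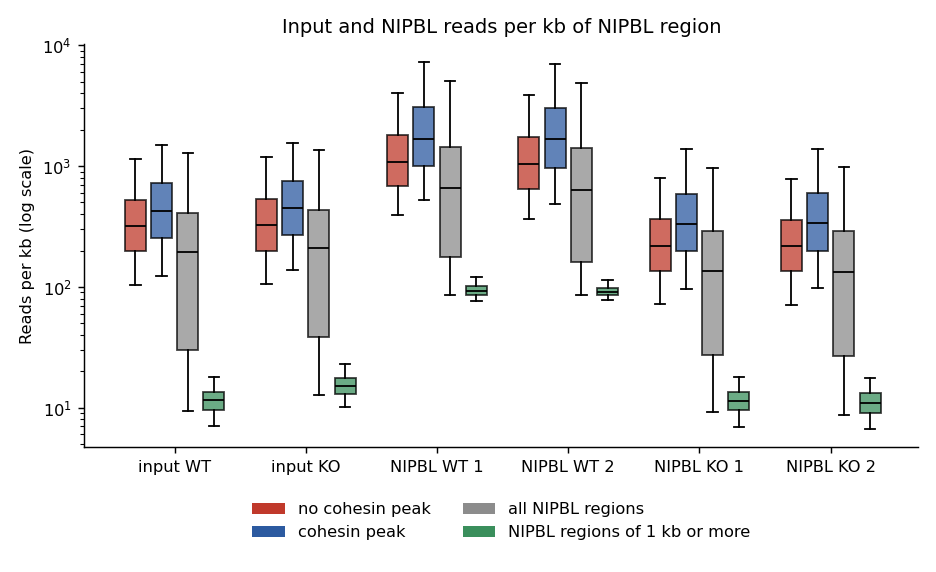
Reads per kb (log axis) of the WT and KO input columns and of each NIPBL library, for regions with a cohesin-free site, regions with H3K27ac and a cohesin peak, all NIPBL regions and regions of 1 kb or more. Boxes give the quartiles and whiskers the 5th to 95th percentiles; the cohesin-free sites have a median of 318 WT input reads per kb and the long regions 11.5.

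NIPBL reads followed input reads from site to site. NIPBL WT libraries had medians of 1073 and 1040 reads per kb at the sites, and KO libraries 216 and 217; regions with a cohesin peak had 1689 and 1676 in WT and 331 and 335 in KO. Where the input held at least 20 reads, there were 3.38 and 3.20 NIPBL reads per input read in WT (7092 regions) and 0.676 and 0.673 in KO (7044 regions). Divided by the column totals over all NIPBL regions, these ratios were 1.01 and 0.995 in WT and 1.03 and 1.03 in KO, so NIPBL reads at the sites stood to input reads as they did over the NIPBL regions together. Long regions of 1 kb or more had 7.49 and 7.29 NIPBL reads per input read in WT and 0.710 and 0.692 in KO. Regions with a cohesin peak had 4.18 and 4.09 in WT, above the sites in both libraries.

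Across the 7829 regions, Spearman's rank correlation between NIPBL and input reads was 0.902 and 0.887 in WT and 0.901 and 0.899 in KO. It was 0.954 between the NIPBL WT libraries, 0.929 between NIPBL WT 1 and KO 1 and 0.956 between the WT and KO inputs. The points share region length, base composition and mappability, and these coefficients are a description. The part of input density in the NIPBL peaks was not tested.

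As CPM (reads scaled to the library's total with edgeR's TMM factors) the median NIPBL level at the sites was 8.98 and 8.81 in WT and 9.72 and 9.74 in KO. The median log2 fold change of KO against WT was 0.14, with all NIPBL regions at 0.00, and library totals gave -0.10 and scaling on background regions 0.30. The sign for the sites therefore turned with the scaling, and library totals moved the median of all regions to -0.23. Since NIPBL WT chose the sites, these values are a description.

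At promoters the highest NIPBL score was beside Ifna7 (4:88460698-88460852, -1259 bp from the start), a type I interferon gene, with 195 and 196 NIPBL reads in WT, 30 and 35 in KO and 26 and 36 in the inputs. It was followed by Hoxb6, a homeobox gene (11:96160173-96160294, -185 bp from the start), with 321 and 336 reads in WT, 60 and 79 in KO and 51 and 70 in the inputs. Rapgef3, an exchange factor for Rap that is activated by cAMP (15:97596459-97596583), had 263 and 284, 50 and 46, and 64 and 53. These are raw reads of libraries with different totals, given above, so they are not compared across groups. Rapsn, which clusters acetylcholine receptors at the muscle synapse, had 749 and 615 reads in WT, 81 and 144 in KO and 107 and 93 in the inputs. Shank1, a postsynaptic scaffold, had its peak over the annotated start (7:51565518-51565637), with 298 and 257 reads in WT and 76 in each input. Ms4a4d, Slc22a8 (an organic anion transporter) and Ankrd42 completed the 8, and Hoxb6 was the only one of the 8 in both ATPneg lists.

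Away from promoters, the highest score, 49.2, was in the body of Tecrl (5:83739438-83739617), with 359 and 335 reads in WT, 89 and 69 in KO and 96 and 91 in the inputs. Dmrta2, a DM domain transcription factor gene 148282 bp from its site at 4:109798913-109799066, had 219 and 200, 42 and 37, and 63 and 54. Gpr39, a zinc-sensing receptor, held its site in the gene body (1:127690364-127690500), with 225 and 219, 32 and 47, and 55 and 45. In each of these both KO libraries held fewer reads than both WT libraries, whose totals were larger. The densest input was in the body of Arhgap21, a GTPase activating protein gene, at 2:20821556-20821779, with 3303 WT and 3865 KO input reads (14055 WT reads per kb). NIPBL had 1275 and 730 reads there in WT and 638 and 445 in KO, below the input in every library. Celf2, an RNA-binding splicing regulator, whose start is -162423 bp from the site at 2:7480249-7480536, followed with 2401 and 2444 input reads and 5063 and 4197 NIPBL reads in WT and 2324 and 2279 in KO. A histone H4 gene, Hist1h4j (13:21827122-21827232), had 362 and 348 input reads, 160 and 119 NIPBL reads in WT and 73 and 76 in KO. Copies of H4 are near identical, so its reads may come from other copies. Arhgap21, Hist1h4j and Celf2 also had the highest NIPBL log2 fold changes among the sites of at least median level, 1.54 ± 0.22, 1.52 ± 0.19 and 1.42 ± 0.09 (SE, 2 against 2 libraries).

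After oligomycin, a minority of the sites had a NIPBL peak. ATPneg 1 held 2229 of the 7836 sites (28.4%, exact binomial 95% interval 27.4 to 29.5) and ATPneg 2 held 1425 (18.2%, 17.3 to 19.1); 1053 (13.4%) were in both lists and 5235 (66.8%) in neither. Such intervals cover counting error only. NIPBL peaks with a cohesin peak were in ATPneg 1 in 64.3% and in ATPneg 2 in 52.7% of cases, so both ATPneg lists held a larger share of these. Because the rule asked for a peak in both WT lists, a lower share in any other list is fixed in part by the choice of sites, and the difference between the 2 sets was not tested. In KO the shares were 2.50% (196 sites, 2.17 to 2.87) and 0.536% (42 sites, 0.387 to 0.724), with 16 sites in both and 7614 (97.2%) in neither, at the lower depth of the KO libraries given above. The ATPneg lists held 14522 and 10224 peaks in all.

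**Figure D2:**
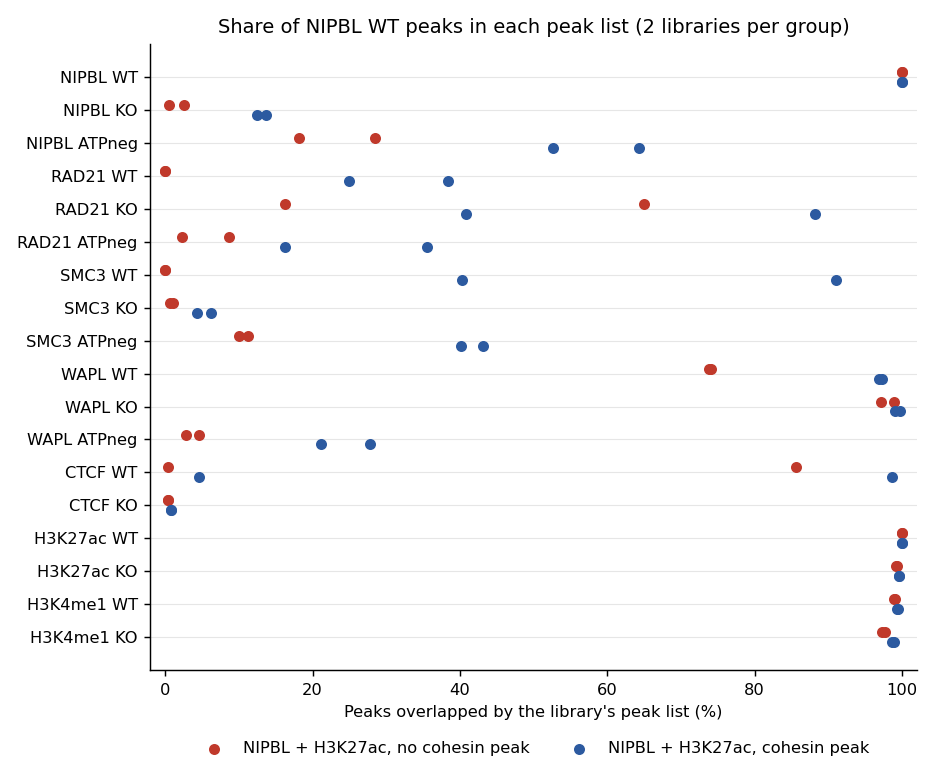
Share (%) of NIPBL WT 1 peaks with H3K27ac that overlap each library's peak list, for the 7836 sites without a cohesin peak and the 9749 with one; each dot is 1 library. The WT lists of NIPBL, H3K27ac, RAD21 and SMC3 are fixed by the rule at 100% or 0% for the cohesin-free sites, which lie at 28.4% and 18.2% for NIPBL ATPneg, 16.2% and 64.9% for RAD21 KO and 0.408% and 85.6% for CTCF WT.

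Presence after oligomycin rose with the NIPBL WT 1 score. When all 17585 NIPBL and H3K27ac peaks were cut into 4 equal groups by that score, ATPneg 1 held 22.02%, 26.5%, 35.2% and 42.8% of the cohesin-free sites from the lowest to the highest group. It held 44.3%, 52.6%, 64.4% and 78.9% of the peaks with cohesin in the same groups. ATPneg 2 gave 13.4%, 15.6%, 23.6% and 31.3% against 32.4%, 38.6%, 51.7% and 69.5%. The cohesin-free sites were thus lower than the peaks with cohesin in each score group and in both libraries. Presence also rose with input density: from the sparsest to the densest group of WT input, ATPneg 1 held 16.04%, 21.7%, 30.9% and 45.1% of the sites. Of the 348 sites with at most 100 input reads per kb, 10.6% and 6.61% were in ATPneg 1 and 2, and none was in KO 2, which allows up to 0.862%. At promoter, gene body and intergenic sites the shares were 29.2%, 28.0% and 28.8% in ATPneg 1 and 19.0%, 16.6% and 20.2% in ATPneg 2.

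**Figure D3:**
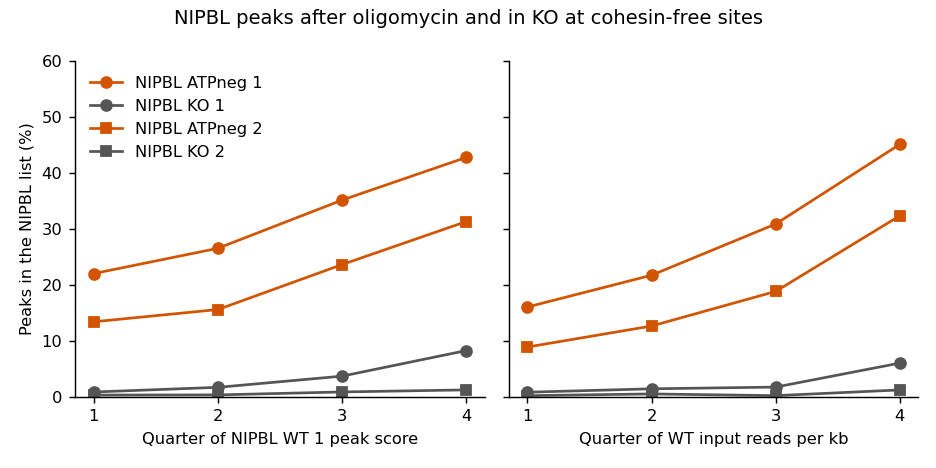
Share (%) of the cohesin-free sites with a NIPBL peak in each ATPneg and KO library, by group of NIPBL WT 1 score (left) and of WT input reads per kb (right). ATPneg 1 goes from 22.02% to 42.8% over the score groups and from 16.04% to 45.1% over the input groups, while KO 1 stays at or under 8.26% over the score groups.

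Both ATPneg lists and both KO lists held 15 of the sites. Of those named, Adtrp, which codes for a transmembrane hydrolase, had the site in its body (13:41866851-41866968) with peak scores of 18.0 and 31.5 in WT, 36.3 and 38.0 in ATPneg and 18.3 and 16.6 in KO. Its NIPBL reads were 777 and 746 in WT and 178 and 199 in KO, with 161 and 172 input reads. Erbb4, a receptor tyrosine kinase gene (1:68290953-68291108), had 436 and 312, 92 and 106, and 133 and 105. Aqp3, a water and glycerol channel gene 15316 bp from 4:41029723-41029900, had 740 and 637, 182 and 199, and 213 and 204. Commd9, Slitrk1 and Zfy2 completed the 6, which had 619 to 1197 WT input reads per kb, above the median of 318.

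Peaks of other proteins were frequent at the sites. WAPL, the release factor, had a peak at 73.7% and 74.1% of them in WT (4803, or 61.3%, in both libraries) and at 97.1% and 98.9% in KO, although the KO lists were shorter (52236 and 68700 peaks against 76389 and 81317). In WAPL ATPneg the shares were 2.88% and 4.54%. Peaks with cohesin had WAPL peaks in 97.3% and 96.9% of cases in WT. H3K4me1 peaks overlapped 99.0% and 98.9% of the sites in WT and 97.3% and 97.7% in KO, and H3K27ac peaks overlapped 99.2% and 99.3% in KO. Most sites thus overlapped peaks of both marks by at least 1 bp in both genotypes. This rests on the labels of lists whose peak names are those of other samples, as given above.

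The CTCF WT libraries differed from each other at the sites, as did the RAD21 KO libraries. CTCF WT 1 had a peak at 0.408% of the sites and CTCF WT 2 at 85.6%, and both KO libraries at 0.434%. RAD21, absent by rule in WT, had a KO peak at 16.2% of the sites in library 1 and 64.9% in library 2, with 1095 (14.0%) in both. In the densest group of input RAD21 KO 2 held 89.1% of the sites and in the sparsest 37.3%. SMC3 KO peaks were at 1.02% and 0.625%, and ATPneg peaks at 10.03% and 11.3% for SMC3 and 8.67% and 2.30% for RAD21. No RAD21 or SMC3 list of any condition held 2265 of the sites (28.9%).

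WAPL was higher in KO at many of the sites and lower at few. It was not used to choose them, and 7806 of 127769 WAPL regions held a site and were tested. A site entered this comparison only through a WAPL peak. WAPL peaks were in neither WT list at 1055 of the 7836 sites (13.5%) and in neither KO list at 39. A higher KO level is thus fixed in part by how these regions entered. The median WAPL level was 5.28 and 5.25 CPM in WT and 6.87 and 6.74 CPM in KO, so the KO libraries lay above both WT libraries. The median log2 fold change was 0.39 (quartiles 0.14 and 0.63), where all tested WAPL regions had 0.07. By edgeR's quasi-likelihood test with Benjamini-Hochberg adjustment, 1816 of the 7806 (23.3%) were higher and 27 (0.346%) lower; over all WAPL regions 13.1% were higher and 27.6% lower. Regions with a cohesin peak gave 2402 higher and 74 lower of 9734 with a median of 0.31, and the difference between the 2 sets was not tested. Without KO 1 there were 2 higher calls and without KO 2 there were 25, while the median log2 fold change was 0.38 and 0.41; the lone KO library was then assumed to vary like the WT pair. Without WT 1 the median log2 fold change was 0.43 and without WT 2 it was 0.41. A fit on WAPL regions with at most 100 input reads per kb alone gave 435 higher and 1 lower of 464, with a median of 1.62. Over all 56935 regions of that fit 23.7% were higher and 9.10% lower. That fit took its TMM factors from these regions alone, so its median is not on the scale of the main fit. In the main fit the sites in the sparsest group of input had a median of 0.42. Library totals moved the median of all WAPL regions to 0.24 and background scaling to 0.52, and the distance of 0.32 from the sites to that median cannot change with a scaling.

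**Figure D4:**
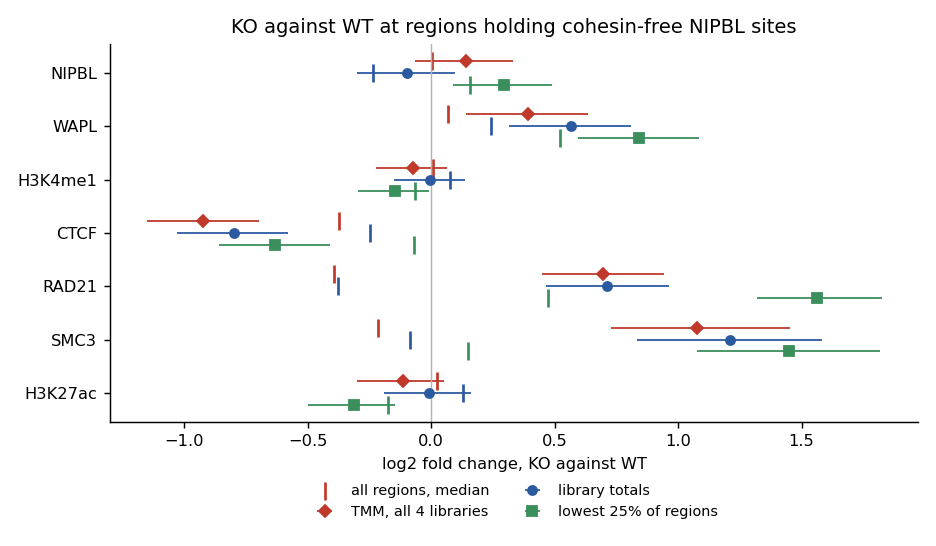
Median log2 fold change of KO against WT at regions with a cohesin-free site, for the 7 targets under 3 scalings (TMM, library totals, background regions), with bars from the lower to the upper quartile and ticks at the median of all tested regions. WAPL at the sites has a median of 0.39 under TMM against 0.07 over all regions, and H3K27ac -0.12.

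The share called for WAPL rose with input while its fold change did not. From the sparsest to the densest group of input, 14.0%, 18.0%, 23.1% and 37.8% of regions were higher, with median log2 fold changes of 0.42, 0.39, 0.36 and 0.40. Regions called higher had a NIPBL peak in ATPneg 1 in 44.3% of cases and the uncalled in 23.7%, with median input of 444 and 294 reads per kb. The groups of sites with more calls thus also had more reads. The WAPL KO libraries were deeper (30496715 and 28011360 reads against 21488840 and 21978527 in WT). WAPL reads per input read were 2.09 and 2.01 in WT and 4.48 and 4 in KO at the sites, or 0.783 and 0.734 and 1.17 and 1.14 once divided by the column totals, while WAPL regions of 1 kb or more had 8.23 and 8.10 in WT and 3.31 and 3.24 in KO before that division. By position the median log2 fold change was 0.34 at promoters (55 higher and 1 lower of 271), 0.38 in gene bodies and 0.40 between genes.

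Among the sites of at least median level, WAPL rose most beside Ctgf, a matricellular growth factor gene (10:24308473-24308619, -6629 bp from its start), from 2.47 and 2.33 CPM in WT to 7.09 and 8.81 CPM in KO. The log2 fold change was 1.73 ± 0.22 (SE; adjusted p = 0.00505, edgeR's quasi-likelihood test with Benjamini-Hochberg adjustment, 2 against 2 libraries, as for the other adjusted p-values here). Both KO libraries lay above both WT libraries, by the rule for naming, as they did at the other sites named here. Map2, a microtubule-associated protein of neurons (1:66219287-66219403), went from 1.26 and 1.58 CPM to 4.21 and 4.22 CPM (1.57 ± 0.24, adjusted p = 0.00753, edgeR), at 70.9 WT input reads per kb. Nat1, an arylamine N-acetyltransferase gene, went from 1.74 and 1.83 to 5.76 and 5.36 CPM, and Fezf2, a zinc finger factor of the forebrain whose site lies in the body of Cadps, went from 1.02 and 2.13 to 5.63 and 4.19 CPM.

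WAPL fell most beside Anapc15, which codes for a subunit of the anaphase-promoting complex (7:109037867-109037976), from 9.92 and 6.98 CPM in WT to 2.14 and 2.38 CPM in KO (log2 fold change -1.90 ± 0.25, adjusted p = 0.00567, edgeR). Tgfb3, a TGF-beta ligand gene (12:87397119-87397258), went from 7.36 and 5.64 to 3.44 and 3.08 CPM (-0.99 ± 0.22, adjusted p = 0.0205, edgeR). Nudt4, Spats1 and Rpap3, the last a co-chaperone of RNA polymerase assembly, fell by 0.89, 0.75 and 0.74 on the log2 scale. At these 5 sites the WT libraries were all above the KO libraries. When each library was left out in turn, the 10 sites that the rule picked for WAPL kept their direction in all 40 values. The naming rule asked for groups that do not overlap, so this direction was fixed in part by the choice.

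**Figure D5:**
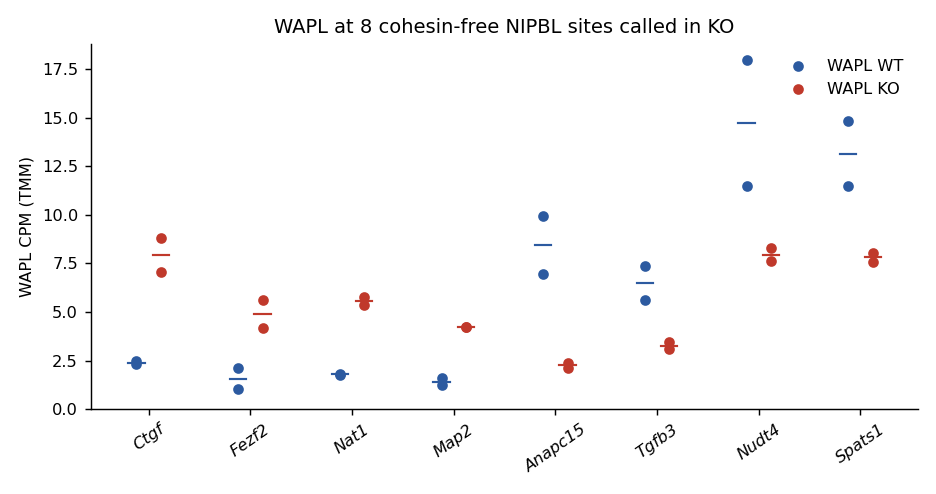
WAPL level (CPM with TMM factors) at 8 of the cohesin-free sites picked for WAPL, the first 4 in each direction; dots are libraries (2 WT, 2 KO) and the short lines their means. Ctgf, Fezf2, Nat1 and Map2 are higher in both KO libraries and Anapc15, Tgfb3, Nudt4 and Spats1 lower, by the rule that named them.

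H3K4me1, the enhancer mark, fell at more of the sites than it rose. Its median level was 6.96 and 6.98 CPM in WT and 6.62 and 6.62 CPM in KO, and the median log2 fold change was -0.08, where all H3K4me1 regions had 0.005. Of 7792 regions with a site, 927 (11.9%) were lower and 197 (2.53%) higher by edgeR's quasi-likelihood test with Benjamini-Hochberg adjustment; over all H3K4me1 regions 9.98% were lower and 6.44% higher. With library totals in place of TMM the split was 569 lower and 471 higher, beside 7.91% lower and 9.36% higher over all H3K4me1 regions. Regions with a cohesin peak gave 2088 lower and 252 higher of 9680, with a median of -0.10. The share of lower calls at the sites was thus close to that of all regions, and that of higher calls was below it. From the sparsest to the densest group of input 6.53%, 8.61%, 12.2% and 20.2% were lower, with a median log2 fold change between -0.08 and -0.07 in each.

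The largest fall of H3K4me1 was at the Clic1 promoter (17:35187924-35188071, 735 bp from the start of this chloride channel gene), from 34.0 and 37.6 CPM in WT to 13.004 and 13.4 CPM in KO. The log2 fold change was -1.44 ± 0.07 (adjusted p = 1.34e-73, edgeR). Ccdc77 at its promoter (6:120315063-120315191) went from 25.1 and 25.3 to 11.4 and 10.5 CPM (-1.20 ± 0.08, adjusted p = 1.36e-42, edgeR). Samd5, Homer1, a postsynaptic scaffold, and Pcdh9, a protocadherin, fell by 1.15, 1.15 and 1.01 on the log2 scale. At Homer1 (13:94125455-94125568) the 2 marks moved in opposite directions, with H3K4me1 at 3.86 and 4.54 CPM in WT and 1.70 and 2.09 in KO and H3K27ac at 1.76 and 2.06 in WT and 4.13 and 3.82 in KO. H3K4me1 rose at Il21r, the interleukin 21 receptor gene of lymphocytes (7:132731239-132731374), from 6.30 and 6.77 to 12.7 and 10.9 CPM (0.84 ± 0.11, adjusted p = 1.49e-12, edgeR). It rose near Irf8, a transcription factor of B and myeloid cells (8:123290909-123291042, 30626 bp from the start), from 15.6 and 17.3 to 26.9 and 27.5 CPM (0.72 ± 0.07, adjusted p = 9.34e-21, edgeR). Cyth1, an ARF exchange factor, Taar6, a trace amine receptor, and Rn4.5s, a small repeated RNA whose reads may be shared among copies, rose by 0.76, 0.90 and 0.93. All 10 sites kept their direction when any 1 library was left out. The naming rule asked for groups that do not overlap, so this was fixed in part by the choice.

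No region with a site was called for CTCF. Its level was 7.84 and 11.8 CPM in WT and 5.54 and 4.998 CPM in KO, so the WT libraries differed from each other by more than WT 1 differed from KO. Of 6587 tested regions 0 passed edgeR's quasi-likelihood test with Benjamini-Hochberg adjustment and 0 passed DESeq2's, while 572 had an unadjusted edgeR p under 0.05; over all CTCF regions 0.00792% were higher and 0.0317% lower. Without WT 1 the median log2 fold change was -1.11 at the sites and -0.59 over all CTCF regions. Without WT 2 these medians were -0.58 and -0.02. Such fits called many regions, over all CTCF regions as well as at the sites. The lone WT library was then assumed to vary like the other group. Most of the 6587 regions with a site entered the CTCF table through the peaks of CTCF WT 2. A higher WT level is thus fixed in part by how they entered.

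RAD21, SMC3 and H3K27ac are described without a test, since their WT lists chose the sites. A site without a WT peak entered the RAD21 or SMC3 table mostly through a KO peak, so a higher KO level there is fixed in part by the choice. At 5263 RAD21 regions the median level was 4.30 and 4.37 CPM in WT and 7.11 and 6.53 CPM in KO, with a median log2 fold change of 0.69. At 108 SMC3 regions the median log2 fold change was 1.08. H3K27ac at 7825 regions was 6.57 and 6.61 CPM in WT and 6.10 and 6.08 CPM in KO, with a median log2 fold change of -0.12. Library totals gave a median of -0.01 for H3K27ac and background scaling -0.32, with all H3K27ac regions moving from 0.02 to 0.13 and -0.18. From the sparsest to the densest group of input, the H3K27ac medians were 0.01, -0.07, -0.14 and -0.25.

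Most sites lay away from promoters. In the authors' annotation 274 (3.49%) were within 2 kb of a gene start, 2643 (33.7%) in a gene body, 3259 (41.6%) between genes with a gene within 200 kb, and 1660 (21.2%) had no gene that near. Promoters made up 2.81% of the NIPBL and H3K27ac peaks with cohesin, 2.28% of all NIPBL regions and 4.21% of all H3K27ac regions, but 25.9% of H3K27ac regions of 1 kb or more. The promoter share of the sites thus lay between those of all NIPBL and all H3K27ac regions, and below that of long H3K27ac regions. The 6176 sites with a nearest gene had a median distance to its start of 44430 bp (quartiles 15005 and 107509) and named 4429 genes, 3264 of them by 1 site and 122 by 4 or more. Most sites named Rbfox1, a neuronal splicing factor gene, with 15 sites, 12 of them in its body. Atg7, an autophagy gene, had 10, none in its body, and Rbms3, an RNA-binding protein gene, had 10, all in its body. Gpc6, a glypican, and Ptprd, a receptor phosphatase, had 9 each. Of the 15 at Rbfox1, 1 was in ATPneg 1, and of the 9 at Ptprd none was.

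Of the 27 annotated B lineage transcription factor genes, 12 (44.4%) were nearest to at least 1 site, where 4429 of all 22286 symbols (19.9%) were, and 10 were nearest to a NIPBL and H3K27ac peak with cohesin. Some NIPBL region, with or without a site, was nearest to 24 of the 27 genes and to 12972 of all 22286 symbols. No test was made of the share nearest to a site. The 12 were Foxp1, Runx1, Bcl6, Foxo1, Irf8, Lef1, Fli1, Id3, Myb, Bcl11a, Erg and Pou2f2, with 18 sites. WAPL was higher at 2 of the 18 and lower at none, with a median log2 fold change of 0.17, and H3K4me1 was higher at 1 and lower at 4. Over all regions 13.1% were higher and 27.6% lower for WAPL, and 6.44% and 9.98% for H3K4me1. Both WAPL calls were in the body of Foxp1, a forkhead factor needed for early B cell development. At 6:98915698-98915858, with 866 and 700 NIPBL reads in WT, 219 and 204 in KO and 226 and 243 in the inputs, WAPL went from 18.9 and 19.2 to 41.7 and 32.7 CPM (0.97 ± 0.14, edgeR adjusted p = 0.00713). At 6:99223633-99223759 it went from 15.7 and 20.8 to 29.6 and 27.7 CPM (0.65 ± 0.16, edgeR adjusted p = 0.0243). At a further Foxp1 site, 6:98917561-98917676, WAPL was 11.5 and 10.4 CPM in WT and 12.8 and 9.72 CPM in KO, and the groups overlapped. All 3 were in ATPneg 1.

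H3K4me1 fell in the body of Runx1, a factor of blood stem cells and lymphocytes (16:92813411-92813529), from 6.59 and 6.77 to 4.01 and 4.13 CPM (-0.72 ± 0.15, edgeR adjusted p = 1.59e-05). It fell near Id3, an inhibitor of E proteins (4:135713109-135713303, 13368 bp from the start), from 28.3 and 24.9 to 20.7 and 22.1 CPM (-0.30 ± 0.07, edgeR adjusted p = 0.00022). The site of Foxo1, which drives Rag expression, lay between genes, 189424 bp from the Foxo1 start. H3K4me1 there fell from 21.7 and 20.3 to 18.4 and 17.5 CPM (-0.22 ± 0.08, edgeR adjusted p = 0.025). In each the KO libraries were below the WT libraries. The site of Bcl6, a repressor of lymphocyte genes (16:23976120-23976243), had 263 and 246 NIPBL reads in WT, 60 and 73 in KO and 110 and 112 in the inputs, and passed neither test. Of 24 genes of the pre-B receptor and Ig recombination, only Cxcr4, the receptor that holds B cell precursors near stromal cells, was nearest to a site (3 sites, none called for WAPL or H3K4me1), while 8 were nearest to a peak with cohesin. Over all 22286 symbols, 4429 were nearest to a site and 4937 to a peak with cohesin.

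In the list of cohesin, its regulators, CTCF, Mediator and acetylation readers, 6 of 25 genes (24%) were nearest to 8 sites, beside 3 nearest to a peak with cohesin. No WAPL region was called. Where 11.9% of regions with a site and 9.98% of all H3K4me1 regions were lower, H3K4me1 was lower at 3 of the 8. These were in Wapal, the gene of WAPL itself (14:35540387-35540538), from 4.66 and 5.58 to 3.34 and 3.43 CPM (-0.61 ± 0.16, edgeR adjusted p = 0.00205), and at 2 sites of Stag1, a cohesin subunit gene (-0.33 ± 0.10 and -0.30 ± 0.11, edgeR adjusted p = 0.0107 and 0.0367). The Nipbl gene itself had a site at -36696 bp from its start that passed neither test.

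The counts of the further lists stand beside 19.9% of all symbols nearest to a site, and WAPL higher at 23.3% of regions with a site and 13.1% of all WAPL regions. Ribosomal protein genes had 9 of 79 members (11.4%) nearest to a site, and WAPL was higher at 6 of the 9 and lower at none, with a median of 0.83. They included the sites nearest Rps4y2 (-51634 bp from the start, in the body of Tmtc1), Rplp1 (54431 bp) and Rpl31 (-76918 bp, in the body of Npas2). Those nearest Rpl10l (112482 bp) and Rpl39l were also among them. At Rpl39l (16:10093844-10093965) WAPL went from 6.78 and 6.23 to 12.5 and 14.0 CPM (1.02 ± 0.15, edgeR adjusted p = 0.00719). The Rpl39l site was at -76355 bp from its start, and none of the 9 sites was at a promoter. Oxidative phosphorylation genes had 10 of 93 (10.8%) with 12 sites, 2 of them promoters (Ndufs5 and Cox7a1, neither called), and WAPL was higher at 3 of the 12. Among these 3, a site in the body of Vps13b, 101703 bp from the Cox6c start, went from 7.21 and 8.21 to 13.7 and 13.1 CPM (0.80 ± 0.14, edgeR adjusted p = 0.0114). The Cox4i1 site, 21383 bp from the start, went from 7.11 and 6.98 to 10.5 and 10.8 CPM (0.60 ± 0.14, edgeR adjusted p = 0.0245). Splicing genes had 7 of 47 (14.9%), with WAPL higher at 2 of 7 sites. These were nearest Srsf3 (-2787 bp from the start, 0.83 ± 0.15, edgeR adjusted p = 0.0111) and Snrpa (-5298 bp, in the body of BC024978, 0.38 ± 0.11, edgeR adjusted p = 0.0408). At the Snrpa site H3K4me1 fell from 44.4 and 47.5 to 34.1 and 33.2 CPM.

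Replication-dependent histone genes had 4 of 63 (6.35%) with WAPL higher at 2 of 3 tested sites (Hist1h4f and Hist4h4). Cell cycle genes had 7 of 24 (29.2%) with WAPL higher at 1 of 8 sites, which lay 147024 bp from the Mycn start. At the Myc site (15:61772803-61772914, -43978 bp from the start) WAPL was 6.05 and 4.45 CPM in WT and 3.84 and 3.62 CPM in KO (-0.49 ± 0.23, edgeR adjusted p = 0.141). Glycolysis genes (2 of 17, with 4 sites) and immediate early genes (1 of 20, Ier5) had no call for WAPL. The lists of 9 ribosomal and 18 B lineage sites thus differed in how many WAPL calls they held, 6 and 2, and this difference was not tested.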

How the data were processed

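Counts are the authors' reads per merged region of a target, deposited for the WT and KO libraries, with a WT and a KO input column. The submitters' processing notes name mm9, BWA, Picard, MACS2, bedtools, featureCounts and edgeR, without versions or roles. Peak lists hold coordinates and the authors' peak score. The deposited input-subtracted counts (a score) served as an alternative, and the deposited normalized signal was not used. A further 2 per-sample columns, inputs from outside the series, stayed unused. H3K27ac and H3K4me1 counts were used without genotype inputs.

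Overlaps (1 bp) were made with bedtools 2.31.1. Counts were fitted over all regions of a target with edgeR 4.0.16 in R 4.3.3 (TMM, filterByExpr, quasi-likelihood test, Benjamini-Hochberg adjusted p under 0.05; 2 KO against 2 WT libraries, tested on simulated data). Overlaps and shares were tallied in Python 3.11.15 with pandas 2.3.3 and scipy 1.17.1. Depths stand in the report. Background scaling used the 25% of regions with the lowest mean. The planned promoter distance of 1 kb was replaced by the authors' 2 kb class. Named genes are the 8 promoter and 8 other sites of highest NIPBL score, the 5 highest and 5 lowest called sites per tested target, the 5 highest and 5 lowest for NIPBL, up to 3 genes per list, up to 6 sites in both ATPneg and KO lists and the 3 of densest input; further list members were named after their values were seen. Sites and lists were chosen with earlier results of these data known. Results for some items that the rule picked are not reported here.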

Additional observations from a re-analysis of the deposited data

How the results depend on the processing

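The number of sites was 4770 with stricter scores in all lists, 2533 with stricter NIPBL scores, 13786 where cohesin had to be in both libraries of RAD21 or SMC3, and 7837 to 11925 when 1 WT library was left out. Sites in both ATPneg lists were 13.4%, 6.01% with stricter scores, 2.01% at sparse input (chosen after seeing the data) and 18.2% to 28.4% with 1 list; for KO the values were 0.204%, 0.0638%, 0% and 0.536% to 2.50%. The NIPBL median was -0.10 with library totals, 0.30 with background scaling, 0.16 with DESeq2, -0.0229 after input subtraction and 0.51 at sparse input (leave-one-out 0.12 to 0.16). WAPL had 3114 higher and 10 lower with library totals, 5375 and 2 with background scaling, 797 and 11 with DESeq2, 981 and 7 after input subtraction and 435 and 1 of 464 at sparse input, where the median was 1.62 (leave-one-out 2 to 3066 and 0 to 272). H3K4me1 had 471 higher and 569 lower with library totals, 77 and 1578 with background scaling and 20 and 146 with DESeq2 (leave-one-out 86 to 144 and 548 to 741). CTCF calls were 0 to 5896 in leave-one-out. The RAD21 median of 0.69 was 1.56 with background scaling, 1.14 with DESeq2, 0.97 without the filter, 2.09 after input subtraction, 2.10 at sparse input (111 regions) and 0.62 to 1.16 in leave-one-out. The SMC3 median of 1.08 was 1.21, 1.45, 1.23 and 1.84 with library totals, background scaling, DESeq2 and input subtraction, and 3.08 at sparse input (3 regions). The H3K27ac median of -0.12 was -0.00895, -0.32, -0.12 and -0.0796 under the same settings, with -0.13 to -0.12 in leave-one-out. Promoter sites were 76 within 500 bp and 134 within 1 kb. The fits at sparse input took their TMM factors from the sparse regions alone, so their medians are not on the scale of the main fits. The cause of these shifts was not tested.

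With the replicate number as a block, WAPL had 1364 higher and 21 lower, H3K4me1 212 and 962, CTCF 0 in all, and NIPBL, RAD21 and SMC3 medians were 0.14, 0.68 and 1.08. Over all regions 9.94% were then higher and 25.3% lower for WAPL, and 6.59% and 10.1% for H3K4me1. The labels do not pair the libraries, and same-numbered libraries correlated in their deviations by -0.22 (CTCF) to 0.03 (RAD21). A crossed pairing for CTCF, added after seeing the data, called 2 regions with a site. For the 10 sites picked for WAPL, calls held in 48 of 61 values under the alternatives other than leave-one-out. For the 10 picked for H3K4me1, calls held in 60 of 60. The depth of the ATPneg libraries is unknown.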

Other observations

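The share of NIPBL WT 1 peaks that met the rule varied by chromosome, from 26.3% on chromosome 1 to 35.9% on chromosome Y, where it rests on 14 of 39 peaks. Neighbouring sites on a chromosome were a median of 211245 bp apart, with 31 within 1 kb and 296 within 10 kb of the next. RAD21 KO 2 and both WAPL KO libraries together held 5020 of the sites (64.1%). Of the marker genes, 4 of 11 myeloid (Csf1r, S100a8, S100a9 and Csf3r) and 2 of 9 mature B (Cr2 and Ciita) were nearest to a site. So were 1 of 12 T cell (Gata3) and 1 of 11 erythroid or megakaryocyte markers (Tfrc), and 0 of 14 small pre-B markers. Over all symbols the share was 19.9%, and no test was made of these counts.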
